A study of Mus musculus with 12 samples.

Results

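The genes described here are 10 markers of mural cells, the contractile and supporting cells that wrap blood vessels: Pdgfrb, Cspg4, Rgs5, Abcc9 and Anpep for pericytes, Acta2, Tagln and Myh11 for vascular smooth muscle, and Notch3 and Des for both. They were taken by symbol from a table of 23260 genes, without any condition on their level. Where a gene had several transcript rows, as for Pdgfrb, Abcc9 and Myh11, the row of highest mean was used. Polyadenylated RNA had been sequenced from the paraventricular nucleus (PVN) of adult male mice, the hypothalamic nucleus that starts the hormonal stress response. All animals were of the C57/Bl6:129S6/SvEvTac hybrid background, were carried by CD1 surrogate dams and were 18 to 20 weeks old. The miR group (6 animals, replicates 1 to 6) came from zygotes injected with 9 miRIDIAN microRNA mimics in DPBS, as a mixture of 1 ng/uL with 0.11 ng/uL of each mimic. The PBS group (6 animals, replicates 7 to 12) came from zygotes injected with DPBS alone. The mimics were given once, at the zygote stage, and shared litters are not marked in the labels. The comparison asks whether these genes of the vessel wall differed in the adult tissue after that exposure.

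Pericytes sit on capillaries inside the basement membrane of the endothelium, and smooth muscle cells form the contractile coat of arterioles and arteries. Endothelial PDGF-B, bound by the receptor PDGFR-β, recruits mural cells to growing vessels, and Notch3 signalling keeps the arterial smooth muscle coat. In the hypothalamus, as elsewhere in the brain, both cell types set local blood flow and pericytes help keep the blood-brain barrier. In bulk tissue such as this punch, fewer cells of a type and less RNA per cell cannot be told apart.

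The mimics are shown first because their seeds (bases 2 to 8, in capitals) define the letters that were searched in the 10 genes. Mature sequences are from RefSeq (GRCm38.p6). Where the labels give no arm, the arm shown is the one usually meant by the name.
miR-29c-3p: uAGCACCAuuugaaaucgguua
miR-30a-5p: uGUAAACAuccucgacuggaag
miR-30c-5p: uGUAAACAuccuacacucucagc
miR-32-5p: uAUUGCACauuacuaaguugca
miR-204-5p: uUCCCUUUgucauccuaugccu
miR-532-3p: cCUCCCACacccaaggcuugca
miR-698-3p: cAUUCUCGuuuccuucccu
The 2 members of the miR-30 family share one seed, and the other 5 seeds shown differ from each other. The mixture also held miR-375 and miR-193-5p, which were not searched.

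The complement of a seed (7 letters, given strand of the transcript only) was looked for in the 3′ untranslated region of each gene's transcript. A match to any of the searched seeds was found in 7 of the 10 genes. The share of all genes with a match to any of these seeds was not computed. It is larger than each share per seed given below, so those shares cannot be set beside this count. The sites below, in capitals with their flanks, show 1 gene for each seed that had a match; sites of different seeds did not overlap. Positions count from 1 at the first base after the stop codon, and coordinates of the sites are those of build GRCm38.
Cspg4, miR-29c site at 468 to 474 of 980 (chr9:56899358-56899364, plus strand): gctatttaacaTGGTGCTggcctagccag
Cspg4, miR-29c site at 692 to 698 of 980 (chr9:56899582-56899588, plus strand): gccgtggcgaaTGGTGCTtcggaggctcc
Notch3, miR-532-3p site at 813 to 819 of 1000 (chr17:32121001-32121007, minus strand): cagggcagaagGTGGGAGtggctctccct
Tagln, miR-204 site at 1 to 7 of 752 (chr9:45930364-45930370, minus strand): AAAGGGAaggccagccct
Myh11, miR-30 site at 233 to 239 of 517 (chr16:14194813-14194819, minus strand): accagcaacttTGTTTACatgaaatgagg
Pdgfrb also had one miR-29c match, at 1662 to 1668 of 1678 bases. Abcc9 had 2 miR-30 matches, at 2429 to 2435 and 2491 to 2497 of 2504 bases. Des had 2 miR-532-3p matches, at 501 to 507 and 586 to 592 of 1529 bases. No match was found in Acta2 (577 bases), Anpep (420 bases) or Rgs5 (3473 bases). Among 12334 tested genes with such a region, of median length 1007 bases, 13.8% held the miR-29c letters TGGTGCT, 15.1% the miR-30 letters TGTTTAC, 14.9% the miR-204 letters AAAGGGA and 14.5% the miR-532-3p letters GTGGGAG. The miR-32 letters GTGCAAT, in 7.05% of genes, and the miR-698 letters CGAGAAT, in 1.58%, were in none of the 10 genes. A match of letters is a description and not a measured binding site.

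Levels are in RPKM, read numbers scaled to transcript length and sequencing depth, and genome coordinates of genes are those of mouse build mm9. Rgs5 had the highest level of the 10 genes, a mean of 11.1 RPKM over the 12 libraries, and its lowest library lay above the highest library of the next gene. Pdgfrb (3.18 RPKM), Notch3 (3.15), Acta2 (2.74) and Cspg4 (2.37) followed. Each pair of neighbours in this order held it in 7 of 12 libraries, so neighbours did not differ beyond the spread, while Pdgfrb and Notch3 were each above Cspg4 in 12 of 12 libraries. Tagln (1.38 RPKM) was below Cspg4 in 12 of 12 libraries, although their ranges overlapped. Abcc9 (0.714 RPKM), Myh11 (0.518), Des (0.326) and Anpep (0.284) lay under a mean of 1 RPKM. These 4 genes did not enter the test across genes, and their values come from a fit without that filter. The pericyte gene Rgs5 was thus higher than each smooth muscle gene in every library.

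Libraries held 22.8 to 45.2 M reads in miR and 27.6 to 38.2 M in PBS. PVN markers were present in every library, with a summed level of Oxt, Avp, Crh, Trh, Sim1 and Otp of 1984 RPKM or more. PBS replicates 7 and 11 stand apart from the other 4 PBS libraries in Meg3, Miat, Snhg11, Leng8 and Snrnp70. Malat1, a nuclear noncoding RNA, did not divide them fully, with 11.2 RPKM in PBS replicate 11 and 9.83 RPKM in PBS replicate 8. Meg3, an imprinted noncoding RNA, measured 50.6 and 58.0 RPKM in them, 158 to 316 RPKM in PBS replicates 8, 9, 10 and 12, and 49.9 to 68.1 RPKM in miR. Leng8 and Snrnp70, which encodes a spliceosome protein, showed the same division, with Snrnp70 at 46.5 and 47.4 RPKM in those 2 libraries, 72.8 to 89.8 RPKM in the other 4 and 38.4 to 46.4 RPKM in miR. Results are therefore given with and without those 2 libraries. They were singled out on these data for resembling the miR libraries, so a larger difference without them is no separate evidence.

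No difference between miR and PBS was called in any of the 10 genes once all genes were taken into account. This does not show that the groups were alike. In limma, 0 of the 6 tested members passed an adjusted p of 0.05, where 0 of 13273 genes (0%) did. On the log2(RPKM + 0.5) scale, on which differences of low genes are understated, all 10 genes had a lower mean in miR, with a median difference of -0.21 against 0.01 over all tested genes. The 5 pericyte genes had a median of -0.15, the 3 smooth muscle genes -0.31 and the genes of both cell types -0.16. A lower value was found in 47.1% of tested genes, and in 56.0% of all genes when no filter was applied. At an unadjusted p under 0.05, limma gave 4 of the 6 tested members lower in miR (Pdgfrb, Cspg4, Notch3 and Tagln), against 11.1% of all tested genes lower and 9.12% higher, 2687 genes in all. Without the filter it gave 3 of 10 (Pdgfrb, Cspg4 and Notch3), against 8.01% of 23260 genes. The exact permutation test gave these 3 genes at p under 0.05, against 9.21% of tested genes lower. Some members varied together across libraries, such as Pdgfrb and Notch3 (r = 0.80 after the group means were removed). That value includes the division of the PBS libraries and cannot be read apart from it. Others did not, such as Rgs5 with Pdgfrb (r = 0.06) and with Acta2 (r = -0.10). The members cannot be counted as independent of each other. In no member did every miR library lie below every PBS library, which was so in 0.226% of tested genes.

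**Figure D1:**
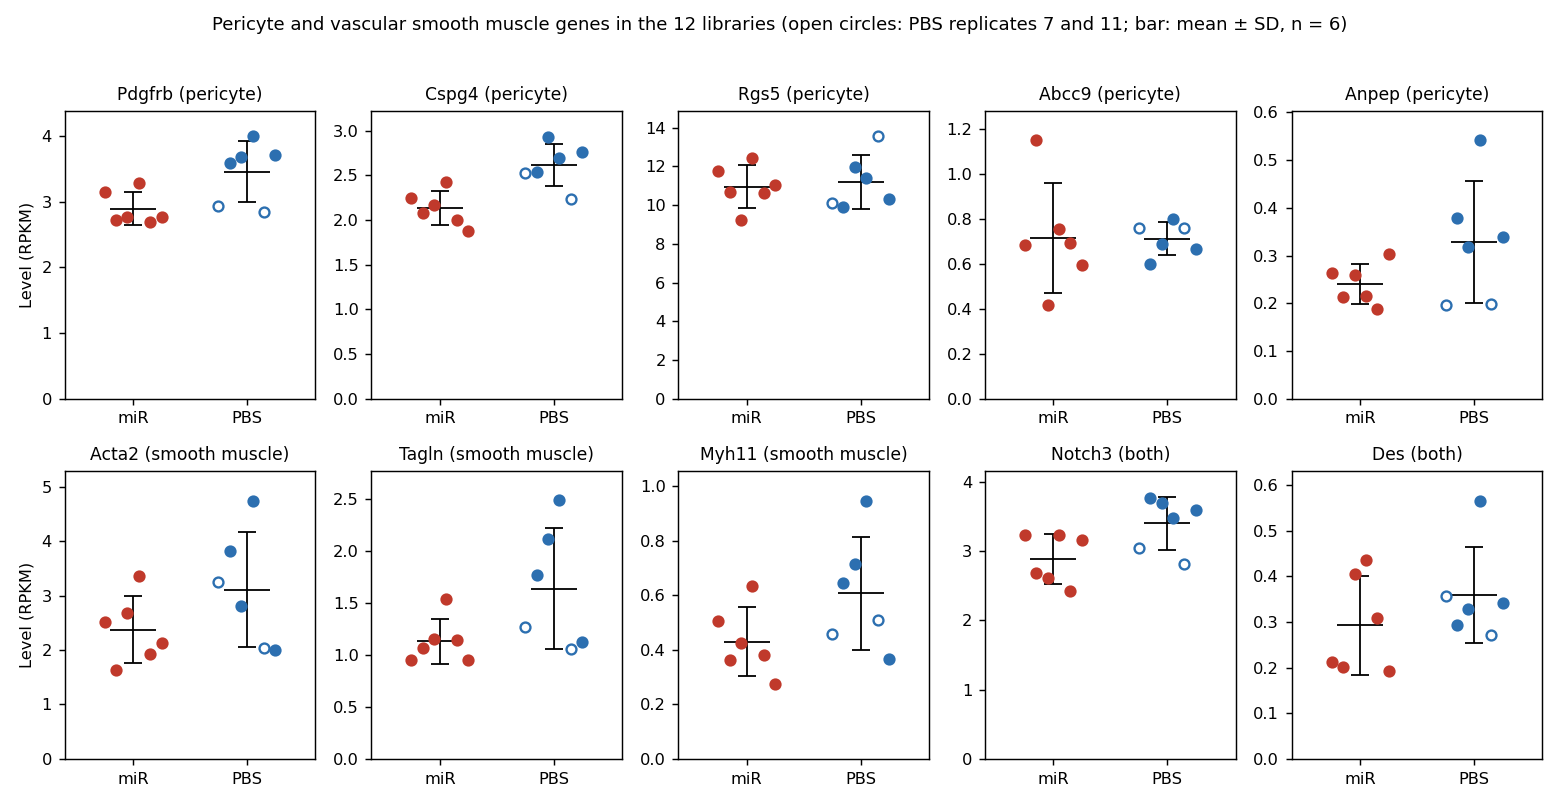
Level in RPKM (vertical axes, each starting at 0) of each of the 10 genes in the miR (red, n = 6) and PBS (blue, n = 6) libraries; bars are the mean ± SD and open circles are PBS replicates 7 and 11. In Pdgfrb, Cspg4 and Notch3 most PBS libraries lie above the miR libraries, while Rgs5 and Abcc9 overlap widely.

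Pdgfrb encodes the receptor through which PDGF-B recruits and keeps pericytes (chr18:61204804-61244721, plus strand). It measured 2.70, 2.77 and 3.29 RPKM (lowest, median and highest) in miR and 2.85, 3.64 and 3.99 RPKM in PBS. PBS replicates 8, 9, 10 and 12 lay above every miR library, and replicates 7 and 11, at 2.94 and 2.85 RPKM, lay inside the miR range. The miR mean was 2.90 ± 0.253 RPKM and the PBS mean 3.46 ± 0.459 RPKM (SD, n = 6 each). The difference was -0.22 on the log2 scale (95% interval -0.39 to -0.04, SE 0.08) with an adjusted p of 0.198 in limma and a 2-sided exact permutation p of 0.0325 before any correction.

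Cspg4 encodes the NG2 proteoglycan of the pericyte surface, which oligodendrocyte precursors carry too (chr9:56712911-56747677, plus strand). It measured 1.87, 2.13 and 2.42 RPKM in miR and 2.24, 2.62 and 2.93 RPKM in PBS, again as lowest, median and highest. PBS replicate 11 was the only PBS library inside the miR range, so the groups overlapped least in this gene. Means were 2.13 ± 0.193 RPKM and 2.61 ± 0.238 RPKM (SD, n = 6 each). The log2 difference was -0.24 (95% interval -0.40 to -0.09) with an adjusted p of 0.174 in limma and an exact permutation p of 0.00649, where 0.00216 is the smallest value this design can give. Of 7 oligodendrocyte precursor markers 5 had a lower value and 0 passed an unadjusted p of 0.05, with a median log2 difference of -0.08. Summed per library they reached 62.6 to 85.6 RPKM (miR) and 69.2 to 101 RPKM (PBS). Their part in the Cspg4 value was not tested.

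Rgs5, a regulator of G protein signalling abundant in brain pericytes (chr1:171585632-171623657, plus strand), measured 9.22, 10.9 and 12.4 RPKM in miR and 9.89, 10.8 and 13.6 RPKM in PBS. Both groups covered nearly the same range, and the highest PBS library was replicate 11. The log2 difference was -0.03 with a 95% interval of -0.21 to 0.15, an adjusted p of 0.863 in limma and an exact permutation p of 0.753. These values do not show that Rgs5 was alike in the 2 groups. Its sign turned in other settings: the difference was 0.0064 without PBS replicates 7 and 11, 0.06 with library weights, and 0.11 with the endothelial markers as a covariate.

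Abcc9, the sulfonylurea receptor subunit of the pericyte ATP-sensitive potassium channel (chr6:142536382-142650794, minus strand), measured 0.415, 0.689 and 1.15 RPKM in miR and 0.601, 0.725 and 0.798 RPKM in PBS. The PBS libraries lay inside the miR range. Its log2 difference was -0.02 (95% interval -0.27 to 0.24, exact permutation p = 0.864), although its mean in RPKM was slightly higher in miR (0.716 against 0.713), and without PBS replicates 7 and 11 the log2 difference was 0.01. Anpep encodes aminopeptidase N, also called CD13, a surface enzyme of brain pericytes (chr7:86966689-86987238, minus strand). Its miR mean was 0.240 ± 0.0422 RPKM and its PBS mean 0.328 ± 0.128 RPKM (SD, n = 6 each), a log2 difference of -0.15 with an exact permutation p of 0.145. The PBS replicates 7 and 11 were at 0.196 and 0.199 RPKM, near the lowest miR library, and the other 4 PBS libraries were at 0.318 to 0.541 RPKM, above every miR library. About 27.2 reads stood behind the median Anpep value, which limits its precision.

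Notch3, the Notch receptor of mural cells (chr17:32257838-32303797, minus strand), measured 2.43, 2.93 and 3.23 RPKM in miR and 2.82, 3.54 and 3.77 RPKM in PBS. As for Pdgfrb, PBS replicates 8, 9, 10 and 12 lay above every miR library and replicates 7 and 11 (3.05 and 2.82 RPKM) inside the miR range. Means were 2.89 ± 0.360 RPKM and 3.40 ± 0.382 RPKM (SD, n = 6 each), a log2 difference of -0.20 (95% interval -0.39 to -0.02) with an adjusted p of 0.219 in limma and an exact permutation p of 0.0498. Des encodes desmin, the muscle intermediate filament also present in pericytes (chr1:75356919-75364290, plus strand). Its miR mean was 0.293 ± 0.108 RPKM and its PBS mean 0.359 ± 0.106 RPKM (SD, n = 6 each), with a log2 difference of -0.12 and an exact permutation p of 0.273. Des values of the 2 groups overlapped widely, from about 29.9 reads at the median.

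The smooth muscle genes spread more between animals than Pdgfrb, Cspg4, Rgs5 and Notch3, with the highest library at 2.91 (Acta2), 2.61 (Tagln) and 3.45 (Myh11) times the lowest, against 1.47 to 1.56 times. For the low genes Abcc9, Anpep and Des this was 2.77 to 2.95 times. Acta2, smooth muscle alpha-actin (chr19:34315581-34329826, minus strand), measured 1.63, 2.32 and 3.36 RPKM in miR and 2.001, 3.03 and 4.74 RPKM in PBS. PBS replicates 8 and 10 lay above every miR library and the other 4 inside the miR range. The log2 difference was -0.31 with a 95% interval of -0.70 to 0.09 (adjusted p = 0.349 in limma, exact permutation p = 0.177). Tagln encodes transgelin or SM22, an actin-binding protein of smooth muscle (chr9:45737711-45744141, minus strand). It measured 0.950, 1.103 and 1.54 RPKM in miR and 1.05, 1.52 and 2.48 RPKM in PBS, with PBS replicates 8, 9 and 10 above every miR library. Its log2 difference of -0.35 (95% interval -0.69 to -0.02) had the largest size among the 10 genes, with an adjusted p of 0.233 in limma and an exact permutation p of 0.0779. Myh11, the smooth muscle myosin heavy chain (chr16:14194620-14291501, minus strand), measured 0.273, 0.402 and 0.634 RPKM in miR and 0.366, 0.578 and 0.944 RPKM in PBS. The same 3 PBS libraries as in Tagln lay above every miR library. The log2 difference of Myh11 was -0.24 with a 95% interval of -0.52 to 0.04 and an exact permutation p of 0.0974.

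**Figure D2:**
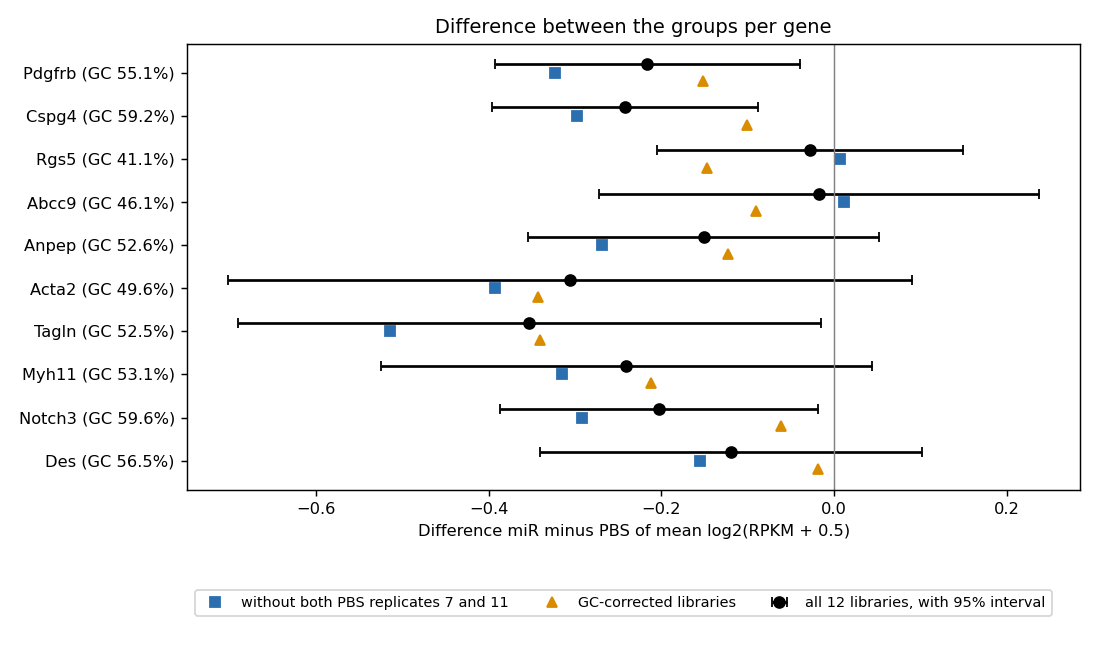
Difference between the group means of log2(RPKM + 0.5), miR minus PBS (horizontal axis), for each gene with its transcript GC content; black circles with 95% intervals use all 12 libraries, blue squares leave out PBS replicates 7 and 11, and orange triangles use libraries corrected for their trend with GC content. Rgs5 and Abcc9, of GC content 41.1% and 46.1%, have black circles near 0, and Cspg4 and Notch3, of 59.2% and 59.6%, move from -0.24 and -0.20 to -0.10 and -0.06 with the correction.

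The smooth muscle genes shared their highest libraries, but other members shared them too, and correlations within a group rested mostly on few libraries. In miR, replicate 4 was also the highest library in Pdgfrb, Cspg4, Rgs5 and Des, but not in Abcc9, Anpep or Notch3. In PBS, replicate 10 was also the highest in Pdgfrb, Abcc9, Anpep and Des, but not in Cspg4, Rgs5 or Notch3. In PBS, Tagln and Myh11 were both highest in replicate 10 (2.48 and 0.944 RPKM), followed by replicates 9 and 8, and in miR both were highest in replicate 4 (1.54 and 0.634 RPKM). Within PBS, Tagln and Myh11 had a Pearson r of 0.93 (exact permutation p = 0.00833) and a Spearman rho of 0.83 (exact permutation p = 0.0583), and r was 0.77 without the 2 libraries farthest from the median of Tagln. Within miR the same pair had an r of 0.71 (exact permutation p = 0.110, rho 0.66, p = 0.175), which rested on 2 libraries, since r was -0.71 without replicates 4 and 6. Acta2 and Myh11 had an r of 0.78 (exact permutation p = 0.0708) in miR, with a rho of 0.77 (p = 0.103), and an r of 0.79 (exact permutation p = 0.0708) in PBS, with a rho of 0.71 (p = 0.136). Without the 2 farthest libraries r was 0.59 in miR and 0.26 in PBS. Acta2 and Tagln had an r of 0.62 (exact permutation p = 0.188, rho 0.54, p = 0.297) in miR and 0.80 (exact permutation p = 0.0722, rho 0.77, p = 0.103) in PBS, or -0.03 and 0.53 without the 2 farthest libraries. These were among 90 relations computed, 45 pairs in each group, and no Benjamini-Hochberg adjusted p was below 0.25 for r or 0.656 for rho. The largest r was that of Cspg4 and Myh11 in miR, 0.98 (exact permutation p = 0.00417, rho 0.94, p = 0.0167), and 0.87 without the 2 farthest libraries. In PBS the same pair had an r of 0.27 (exact permutation p = 0.611, rho 0.26, p = 0.658; r = -0.04 without the 2 farthest), and the difference between the groups was not tested. For Pdgfrb and Notch3 no correlation within PBS is given, since their PBS libraries fall in 2 clusters.

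**Figure D3:**
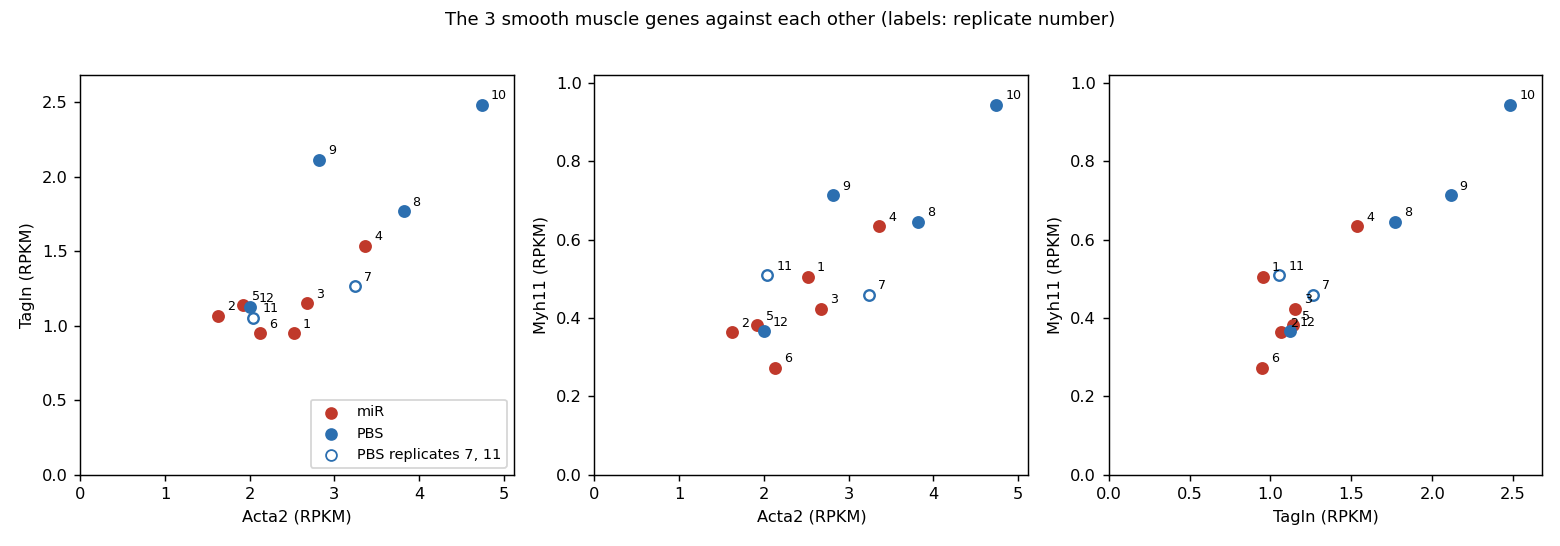
Levels in RPKM of Acta2, Tagln and Myh11 against each other, one point per library (red miR, blue PBS, open circles PBS replicates 7 and 11), numbered by replicate. PBS replicate 10 is highest in all 3 genes, and PBS replicates 11 and 12 lie among the miR libraries in Acta2 and Tagln.

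The 2 sets of genes were compared by a score, the mean log2 level of the smooth muscle genes minus that of the pericyte genes. Abcc9, Anpep and Myh11, which enter it, lay under a mean of 1 RPKM. Whether it measures the balance of the 2 cell types was not tested. The score was -0.61 ± 0.19 in miR and -0.44 ± 0.29 in PBS (SD, n = 6 each). PBS replicate 10 had the highest value (-0.07) and PBS replicate 12 a value of -0.83, close to the lowest miR library at -0.85, so the groups overlapped over most of their range. Within pericyte genes the ratio of Pdgfrb to Rgs5 in RPKM was 0.265 ± 0.0187 in miR, from 0.2504 to 0.301. In PBS it was 0.314 ± 0.0587, with replicates 8, 9, 10 and 12 at 0.307 to 0.363, above every miR library, replicate 7 at 0.291 and replicate 11 at 0.210. The ratio of Acta2 to Pdgfrb was 0.812 ± 0.158 in miR and 0.896 ± 0.257 in PBS (SD, n = 6 each), so it overlapped between the groups.

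The differences were larger without the 2 PBS libraries that stand apart. Without PBS replicates 7 and 11, limma called 4 of the 6 tested members, all lower in miR, where 23.4% of tested genes were called in either direction and 11.5% were called lower. Pdgfrb had a log2 difference of -0.32 (adjusted p = 0.00675 in limma), Cspg4 -0.30 (adjusted p = 0.0135), Notch3 -0.29 (adjusted p = 0.0240) and Tagln -0.51 (adjusted p = 0.0339). Acta2, at -0.39 (adjusted p = 0.180), and Rgs5, at 0.0064 (adjusted p = 0.963), were not called. With no filter on level as well, a setting chosen after seeing the data, limma called 4 of the 10 members: Pdgfrb, Cspg4, Notch3 and Anpep (log2 difference -0.27, adjusted p = 0.0435). Tagln then had an adjusted p of 0.0891 in limma, and 6.48% of genes were called lower. Without PBS replicate 11 alone limma called Cspg4 (log2 difference -0.28, adjusted p = 0.0492), where 2.45% of genes were called lower. Library weights, which fall where a library departs from its group, gave 3 called members, Pdgfrb, Cspg4 and Tagln, all lower, with 12.0% of genes called lower. With the mean z-score of Meg3, Miat, Snhg11, Leng8 and Snrnp70 as a covariate, the log2 difference was -0.0075 for Pdgfrb, -0.0061 for Notch3, -0.08 for Tagln, -0.13 for Cspg4, -0.21 for Acta2 and 0.07 for Anpep. Those RNAs were picked on these data and largely followed the groups, so this fit cannot separate them from the group difference. No member was called by limma in that fit, and the unadjusted p of each tested member was above 0.05.

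**Figure D4:**
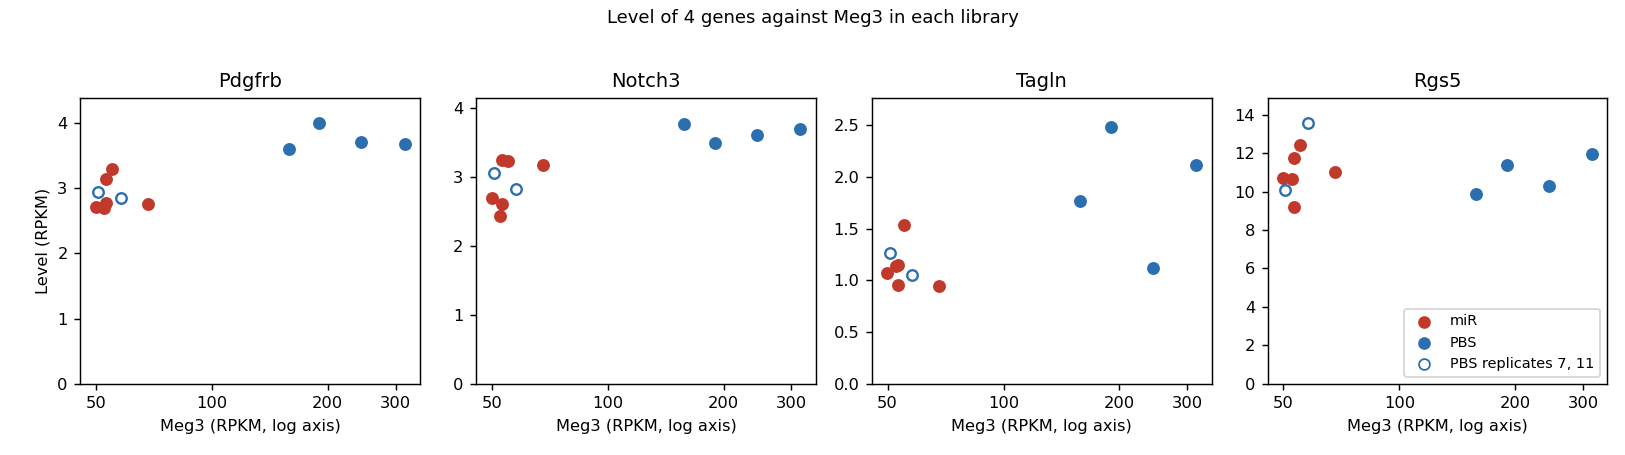
Level in RPKM of Pdgfrb, Notch3, Tagln and Rgs5 (vertical axes) against Meg3 (horizontal log axis, RPKM) in each library, red miR, blue PBS and open circles PBS replicates 7 and 11. The libraries of Meg3 at 158 RPKM or more, all PBS, have the highest Pdgfrb and Notch3 levels, and Rgs5 shows no such division.

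The values were also compared with transcript GC content. The transcripts of Rgs5 (41.1% GC) and Abcc9 (46.1%) had the smallest differences, and the other 8, with differences from -0.12 to -0.35, had 49.6% to 59.6% GC, where the median over tested genes was 50.6%. Among these 8, Tagln and Acta2, with the largest differences on the log2 scale, were at 52.5% and 49.6% GC. Des, with the smallest, was at 56.5%, but its level was 0.326 RPKM, and this scale understates differences of low genes. The ratio of its miR mean to its PBS mean was 0.814, against 0.816 for Cspg4 and 0.850 for Notch3. The part of GC content in the differences was not tested. After each library was corrected for its trend with GC content, the log2 difference was -0.10 for Cspg4, -0.06 for Notch3 and -0.02 for Des, against -0.24, -0.20 and -0.12 before. Tagln (-0.34), Acta2 (-0.34) and Myh11 (-0.21) changed little, Pdgfrb was at -0.15, and Rgs5 went from -0.03 to -0.15. All 10 genes still had a lower mean in miR, with a median of -0.14, and limma called 0 genes. Pdgfrb and Tagln were just under an unadjusted p of 0.05, where 8.32% of tested genes were lower at that level.

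Other genes listed for the same cells gave a mixed picture. Of 18 further pericyte genes 8 were tested, 7 with a lower and 1 with a higher value, and the median log2 difference was -0.19. None was called by limma, and 3 were lower at an unadjusted p under 0.05. With no filter on level, 16 of the 18 had a lower and 2 a higher value, with a median of -0.18. Vtn, the pericyte-derived matrix protein vitronectin, was at 11.4 ± 0.898 RPKM (miR) and 17.0 ± 4.98 RPKM (PBS), a log2 difference of -0.50 (adjusted p = 0.174 in limma). Atp13a5, a P-type transport ATPase, measured 1.78 ± 0.295 and 2.27 ± 0.425 RPKM (SD, n = 6 each). Of 22 further smooth muscle genes 12 were tested, 5 with a lower and 7 with a higher value, with a median of 0.05. Several of these were far above the smooth muscle members in level, such as Sncg (63.9 RPKM in miR, 60.1 in PBS) and Tpm1 (39.5 and 39.7 RPKM). Whether their values come from smooth muscle cells was not tested. With no filter, 12 of the 22 had a lower and 10 a higher value (median -0.0046), among them Smtn, which encodes smoothelin, whose mean was 0.704 RPKM (miR) and 1.05 RPKM (PBS); it was chosen after its values were seen. Gucy1b3, a subunit of the nitric oxide receptor guanylate cyclase that neurons express too, was at 35.3 ± 1.92 RPKM (miR) and 31.8 ± 2.81 RPKM (PBS), with an adjusted p of 0.207 in limma. Mustn1, a small protein of the musculoskeletal system, had a log2 difference of -0.19 (adjusted p = 0.301 in limma). Of the 8 regulators of smooth muscle genes around SRF and myocardin 6 were tested, 5 with a lower and 1 with a higher value, with a median of -0.08. The myocardin-related coactivator Mkl1 measured 6.35 ± 0.655 and 7.501 ± 0.854 RPKM (log2 difference -0.22, adjusted p = 0.188 in limma), and Tead1, a partner of the YAP coactivator, 6.31 ± 0.589 and 5.81 ± 0.928 RPKM.

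Of 5 genes of PDGF ligands and the second receptor, 3 had a lower and 2 a higher value in miR, and none was called by limma. Pdgfb, the endothelial ligand that recruits pericytes, was at 2.60 ± 0.284 RPKM (miR) and 3.23 ± 0.443 RPKM (PBS), a log2 difference of -0.27 (adjusted p = 0.174 in limma). Pdgfd, the other ligand of this receptor, measured 2.26 ± 0.364 and 1.76 ± 0.283 RPKM, a log2 difference of 0.28 (adjusted p = 0.186 in limma). Pdgfa was at 19.7 ± 2.28 and 19.8 ± 2.11 RPKM and Pdgfc at 1.83 ± 0.226 and 2.01 ± 0.201 RPKM. Pdgfra, the receptor of fibroblasts and oligodendrocyte precursors, was at 12.2 ± 0.777 and 11.1 ± 1.64 RPKM (SD, n = 6 each).

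Of 23 genes of the Notch pathway 21 were tested, 15 with a lower and 6 with a higher value, with a median of -0.02 and none called by limma. Notch1 (3.49 ± 0.282 and 3.64 ± 0.263 RPKM) and Notch2 (2.75 ± 0.178 and 2.80 ± 0.249 RPKM) had log2 differences of -0.06 and -0.02, and Notch4, an endothelial receptor, lay under the filter at 0.504 ± 0.0273 and 0.576 ± 0.0739 RPKM. Among the ligands Jag1, which acts on Notch3 in arteries, measured 1.02 ± 0.120 and 1.16 ± 0.0823 RPKM (log2 difference -0.13), Jag2 11.1 ± 1.68 and 12.8 ± 1.33 RPKM (-0.20, adjusted p = 0.244 in limma), Dll1 2.30 ± 0.267 and 2.38 ± 0.232 RPKM and Dll4 0.376 ± 0.0947 and 0.526 ± 0.0686 RPKM. The smallest p-values were those of Adam10, a protease that cleaves Notch receptors (19.9 ± 1.18 and 17.6 ± 1.78 RPKM, adjusted p = 0.185 in limma), and of the glycosyltransferase gene Rfng (14.6 ± 1.63 and 18.5 ± 3.54 RPKM, adjusted p = 0.188 in limma). Among partners of the Abcc9 channel, Kcnj8, its pore in pericytes, lay under the filter at 0.601 ± 0.0998 and 0.767 ± 0.150 RPKM. The pore Kcnj11 and the receptor Abcc8, which neurons use, had log2 differences of -0.07 (adjusted p = 0.647 in limma) and -0.27 (adjusted p = 0.219 in limma).

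Of 17 genes of signalling between endothelium and mural cells 15 were tested, 7 with a lower and 8 with a higher value, with a median of 0.004. Nos3, the endothelial nitric oxide synthase whose product relaxes mural cells, was at 1.96 ± 0.106 RPKM (miR) and 2.63 ± 0.398 RPKM (PBS), a log2 difference of -0.34 (adjusted p = 0.174 in limma). Acvrl1, an endothelial receptor of the TGF-β family, measured 1.91 ± 0.157 and 2.36 ± 0.291 RPKM (adjusted p = 0.174 in limma). The 5 relatives of Des and Rgs5 (Vim, Synm, Nes, Rgs2 and Rgs4) gave 1 lower and 4 higher values, with a median of 0.02. Nes, an intermediate filament gene, had a log2 difference of -0.11 (adjusted p = 0.312 in limma) and Rgs2, a relative of Rgs5, one of 0.13 (adjusted p = 0.395 in limma).

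**Figure D5:**
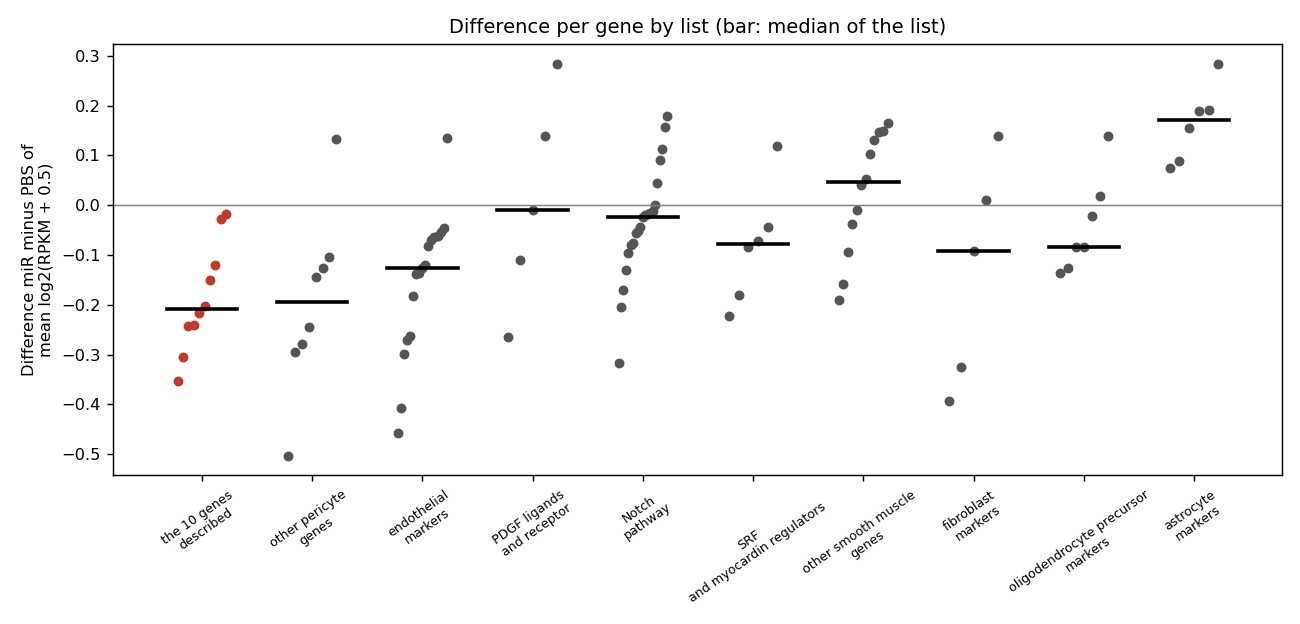
Difference between the group means of log2(RPKM + 0.5), miR minus PBS (vertical axis), for the 10 genes (red, without a filter on level) and for the tested genes of 9 lists (grey), one point per gene, with the median of each list as a bar. Medians are -0.21 for the 10 genes, -0.19 for other pericyte genes, -0.13 for endothelial markers, 0.05 for other smooth muscle genes and 0.17 for astrocyte markers.

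Markers of other cell types were read beside the members, and limma called none of them. Of 18 endothelial markers 17 were tested, 16 with a lower value in miR, and 5 at an unadjusted p under 0.05, with a median log2 difference of -0.13. Summed per library they reached 143.5 to 165.7 RPKM in the miR group and 148.2 to 185.1 RPKM in the PBS group, where replicate 7 was the lowest. With their mean z-score as a covariate the log2 difference was -0.10 for Pdgfrb and -0.08 for Notch3, less than the values without it by more than 1.5 times, -0.23 for Cspg4 and 0.11 for Rgs5. No member was called by limma in that fit, and the median of the 10 genes was -0.11. Cspg4 kept an unadjusted p of 0.0301 in limma, and the other tested members were above 0.05. Cdh5, the endothelial cadherin, and Esam, an adhesion molecule of endothelium, had the smallest p-values, with log2 differences of -0.26 (adjusted p = 0.174 in limma) and -0.41 (adjusted p = 0.177 in limma). Fibroblast markers, 5 of 10 tested, gave 3 lower and 2 higher values, led by Dcn (-0.33) and Igf2 (-0.39). They summed to 22.4 to 29.3 RPKM in miR and 24.7 to 27.8 RPKM in PBS. The largest part of that sum was Pdgfra (12.2 RPKM in miR, 11.1 in PBS), which is also listed for oligodendrocyte precursors. The collagen gene Col1a1 lay under the filter at 0.323 and 0.415 RPKM. Astrocyte markers had a higher value in 6 of 6 genes, led by Gjb6 (0.19) and Aqp4 (0.28), and summed to 434 to 490 RPKM in miR and 371 to 471 RPKM in PBS. No endothelial, fibroblast or astrocyte marker was at 0 in all libraries, and their part in the values of the 10 genes was not tested beyond the endothelial covariate. All 6 markers of perivascular macrophages, cells that can also carry Anpep, were under the filter, with a summed level of 0.963 to 2.06 RPKM over all libraries. Striated muscle genes, which would accompany desmin in skeletal muscle, summed to 4.44 to 6.74 RPKM over all libraries, with 2 of 7 tested. The largest parts were Acta1 (2.98 RPKM in miR, 3.17 in PBS) and Mb (1.90 and 1.63 RPKM), while Ckm was at 0.191 and 0.178 RPKM. Choroid plexus markers (4 of 7 tested, 3 with a lower value) summed to 8.53 to 11.8 RPKM in miR and 8.24 to 13.2 RPKM in PBS. Most of this was Clic6 (6.08 RPKM in miR, 5.42 in PBS), while Ttr lay under the filter at 0.443 and 0.307 RPKM. Red blood cell markers were higher in miR in 4 of 4 tested genes, none at an unadjusted p under 0.05, and summed to 35.4 to 86.6 RPKM in miR and 30.5 to 73.6 RPKM in PBS. Hba-a1 and Hba-a2 had nearly the same values, as did Hbb-b1 and Hbb-b2, so the 4 genes are not separate results.

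The genes whose level varied most like a member's, after the group means were removed and over the 12 libraries, differed between the pericyte genes. For Pdgfrb they were Fxyd5 (r = 0.96), Abcg4 (0.96) and Gpr124 (0.95). For Rgs5 they were Flt1, an endothelial VEGF receptor (r = 0.93), Cntn5 (0.90) and Nf1 (0.89). For Acta2 they were Ube3b (r = 0.89), Rcn3 (0.89) and Fam89b (0.88), and for Myh11 they were Ptprn2 (0.91), Acad8 (0.88) and Ldhd (0.87). Tagln ranked 7th among all tested genes in likeness to Myh11 (r = 0.86) and Acta2 ranked 64th (r = 0.78). Pdgfrb was most like Notch3 (r = 0.80) and Cspg4 (r = 0.78) among the members tested, and had an r of 0.06 with Rgs5. Among all 13272 genes ranked by likeness to Pdgfrb, Notch3 was only 264th and Cspg4 329th. These values are descriptions: the 12 points share the division of the PBS libraries.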

How the data were processed

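PVN punches (1.0 mm needle, 2 slices of 300 µm) gave 250 ng of RNA for each stranded poly-A library, run single-end on 2 lanes, per the labels' protocols. The authors deposited 1 table of RPKM values with 30399 transcript rows, per the file headers. The submitters' processing notes name build mm9 and edgeR; aligner, counter and any scaling: not given in the sources used here. Replicates are described as biological; p-values measure the spread between these samples. Depth was estimated from the spacing of the lowest values.

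Members and lists were chosen with earlier results of these data known. Values were tested as log2(RPKM + 0.5) with limma 3.58.1 in R 4.3.3 (2-sided, with a variance trend, threshold 0.05 after Benjamini-Hochberg adjustment) over 13273 genes whose mean reached 1 RPKM. Members were also compared by an exact 2-sided permutation test over 924 labelings. Named are the 10 members, the 2 genes of smallest p in a list, all PDGF, Notch and KATP ligands and receptors, and the 3 genes most like Pdgfrb, Rgs5, Acta2 and Myh11. Further macrophage, muscle, blood and plexus lists are given by sums. The settings varied were the pseudocount (0.1 or 1 RPKM), the filter (none or 5 RPKM), quantile normalization, median scaling, a GC correction in 20 bins, sums over rows, single rows, no variance trend, library weights, covariates, and libraries left out. Transcripts of GENCODE M21, matched by RefSeq accession, gave GC content (98.0% of tested genes) and 3′ untranslated regions (12334 of 13273), both for 10 of 10 members. Scripts ran in Python 3.11.15 with pandas 2.3.3 and were tested on simulated data.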

Additional observations from a re-analysis of the deposited data

Results flagged for a closer look

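Each of the 10 genes was checked in each group for a library far from the other 5, which made 20 checks, of which chance gives about 1 in 20. The library of miR replicate 4 stood apart in Tagln, at 1.54 RPKM where the other miR libraries were at 0.950 to 1.15 RPKM: its gap to the nearest library was 0.659 of the range of the group, above the 95% limit of 0.625 (Dixon's test). PBS replicate 10 stood apart in Des, at 0.566 RPKM where the next PBS library was at 0.357 RPKM, a gap of 0.710 of the range. Both libraries were the highest of their group in Pdgfrb, Acta2, Tagln, Myh11 and Des.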

How the results depend on the processing

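Counts of genes called by limma (0 of 13273 with all libraries) depended on the PBS libraries: 3107 without PBS replicates 7 and 11, 2850 with no filter as well (chosen after seeing the data), 3025 with library weights, and 0 to 909 with a library left out in turn, the highest without PBS replicate 7, then 429 without PBS replicate 11. Members called went from 0 to 4 without replicates 7 and 11 (4 with no filter as well), to 3 with weights and to 0 to 1 with a library left out. The cause was not tested.

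The log2 difference of Rgs5 changed sign to 0.060 with weights, 0.11 with the endothelial covariate and 0.0064 without PBS replicates 7 and 11 (0.0064 with no filter as well), and ran from -0.064 to 0.026 with a library left out. It was positive there without miR replicate 3 (0.018) and without PBS replicate 11 (0.026). Abcc9 changed to 0.012 without PBS replicates 7 and 11 and no filter, and Anpep to 0.07 with the covariate of RNAs that divide the PBS libraries. The other 5 tested members had a negative value in 27 of 27 settings. Some settings, such as no filter on level or no variance trend, cannot change this value. Those with a library left out share most of their libraries. Pdgfrb (-0.0075) and Notch3 (-0.0061) were near 0 with the covariate of RNAs that divide the PBS libraries, which largely followed the groups. The median of the members ran from -0.29 to -0.08.

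No paired analysis was possible because the groups share no replicate number (1 to 6 for miR, 7 to 12 for PBS). Low depth limits Anpep, Des and Tagln, with medians of 27.2, 29.9 and 59.8 reads.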
